A study of Mus musculus with 6 samples.

Results

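The interleukins, colony-stimulating factors and the TNF superfamily, with their receptors, were examined in the uterine transcriptome of mice lacking uterine Foxo1. Members were taken by symbol, as every gene named Il with a number, Csf1 to Csf3 and their receptors, Tnf, Lta, the numbered Tnfsf and Tnfrsf genes, Tslp, Crlf2 and 1 further gene, leaving out Il6 and Il6st. The rule found 125 of the 23420 genes listed, namely 42 ligands and 48 receptors of the interleukins and colony-stimulating factors, 13 TNF superfamily ligands, 20 TNF receptor superfamily genes and 2 other genes. The others were Il4i1, an amino acid oxidase, and Il8, which RefSeq holds as a synonym of the chemokine gene Cxcl15.

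RNA-seq was performed on uteri of 8-week-old C57BL/6J females on day 4.5 of pseudopregnancy, after mating with vasectomized males, when the uterus would receive an embryo. Control Foxo1f/f mice, called controls below, carried floxed Foxo1 alleles and no Cre. Foxo1d/d mice carried the same floxed alleles and PgrCre, a Cre recombinase inserted in the progesterone receptor locus, which removes the second major coding exon of Foxo1. This Cre is active in the uterine epithelium, stroma and muscle, and also in the pituitary, the granulosa cells of the ovary and the mammary gland. Since the controls lacked Cre, deletion of Foxo1 and the presence of Cre with the loss of a Pgr allele cannot be told apart. Each genotype had 3 libraries, each from the pooled RNA of 2 mice, and the values are the mean counts of the 3 libraries. On average, 26125014 counts per library fell on genes in the controls and 27257963 in Foxo1d/d. Values of single libraries were not analysed here, so no difference below has a replicate check. The 95% intervals were computed from the counts summed over the libraries of a genotype and cover counting error only, not the variation between pools.

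Interleukins, colony-stimulating factors and TNF ligands are small secreted or membrane-bound proteins through which epithelium, stroma and leukocytes signal to each other, and most act through receptor chains that are shared between ligands. In the uterus, CSF1 supports macrophages, IL-15 supports the maturation of uterine natural killer cells, and signaling through the IL-11 receptor is required for decidualization. TNF receptors signal through adaptor proteins to NF-kB or to cell death, while most interleukin receptors signal through Janus kinases and STAT proteins, and those of the IL-1 and IL-17 families through MYD88 or TRAF3IP2.

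Foxo1 itself had a mean count of 3941 in controls and 1456 in Foxo1d/d uteri, which was 2.82-fold lower. Its log2 ratio was -1.50 (interval -1.55 to -1.45). Whole-gene counts also take in the exons that the deletion leaves in place. Pgr had mean counts of 5469 and 6551, with a log2 ratio of 0.20.

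Of the 125 members, 91 averaged at least 10 counts over the genotypes. Among these, 12 were at least 1.5-fold higher and 4 at least 1.5-fold lower in Foxo1d/d, which is 13.2% and 4.40% of them. Across all 15696 genes above the same minimum, 5.43% were at least 1.5-fold higher and 3.51% at least 1.5-fold lower. For the log2 ratio, 1 was added to each mean count before division by the total of the genotype, positive ratios are higher in Foxo1d/d, and folds are given without the pseudocount. The median log2 ratio was 0.13 over the 91 members and 0.02 over all genes, and 60 members lay above 0 and 31 below. The share above 0 was 65.9% of the members and 55.1% of all genes. Markers of T cells and of adipocytes were also higher in Foxo1d/d, 8 of 9 and 6 of 7 of them by at least 1.5-fold, and their part in the values of the members was not tested. In bulk tissue, fewer cells of a type and less RNA per cell cannot be told apart. The members held 0.239% of all counts in controls and 0.287% in Foxo1d/d. A large part of that difference lay in Il17rb, whose share of the member counts was 4.85% in controls and 16.5% in Foxo1d/d. The log2 ratio of the summed member counts was 0.26 with Il17rb and 0.08 without it.

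**Figure D1:**
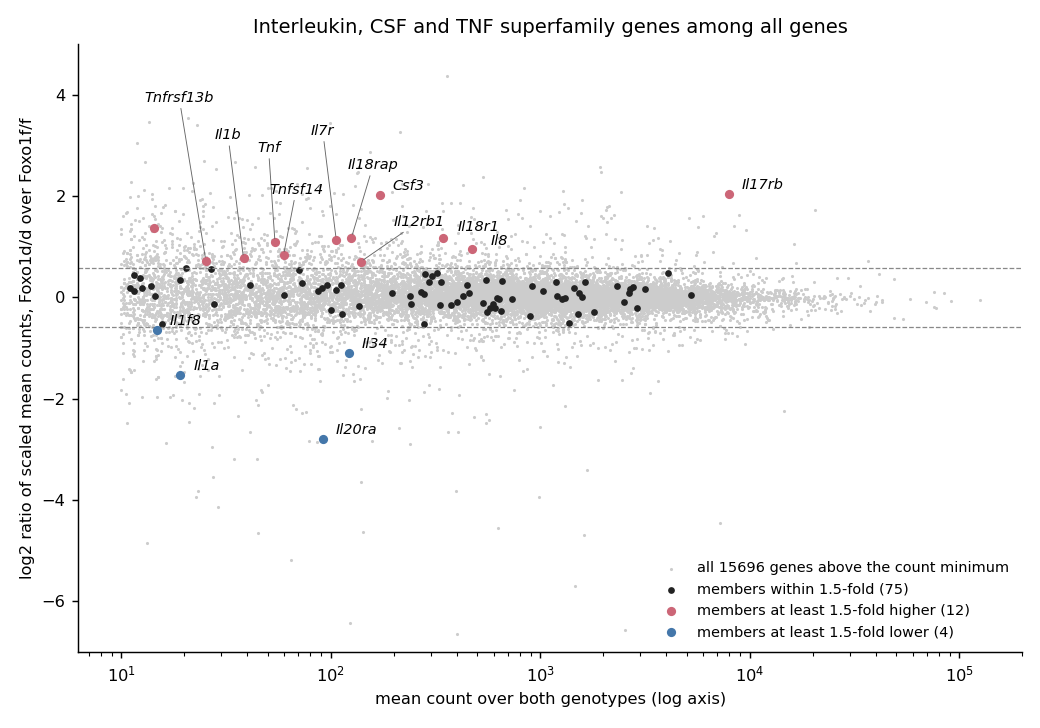
Log2 ratio of the scaled mean counts (Foxo1d/d over Foxo1f/f) against the mean count over both genotypes, on a log axis, for the 15696 genes that averaged at least 10 counts (grey) and the 91 members among them. Dashed lines mark 1.5-fold; 15 of the 16 members past it are named, and Il17rb stands apart from genes of like abundance.

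By class, 2 of the 18 interleukin and CSF ligands above the minimum were at least 1.5-fold higher and 3 lower, with a median log2 ratio of 0.11. Among the 43 receptors of these ligands, 6 were higher and 1 lower, with a median of 0.13. The TNF superfamily had 2 higher among 10 ligands and 1 higher among 19 receptors, with none lower and medians of 0.21 and 0.07. Over both groups, 7 of 62 receptors (11.3%) were higher and 1 lower, against 4 of 28 ligands (14.3%) higher and 3 lower. Of the 16 members past 1.5-fold, 11 had a counting interval that lay wholly beyond 1.5-fold. The intervals of Il12rb1, Il1b, Il1f8, Tnfrsf13b and Tnfsf14 reached inside it.

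**Figure D2:**
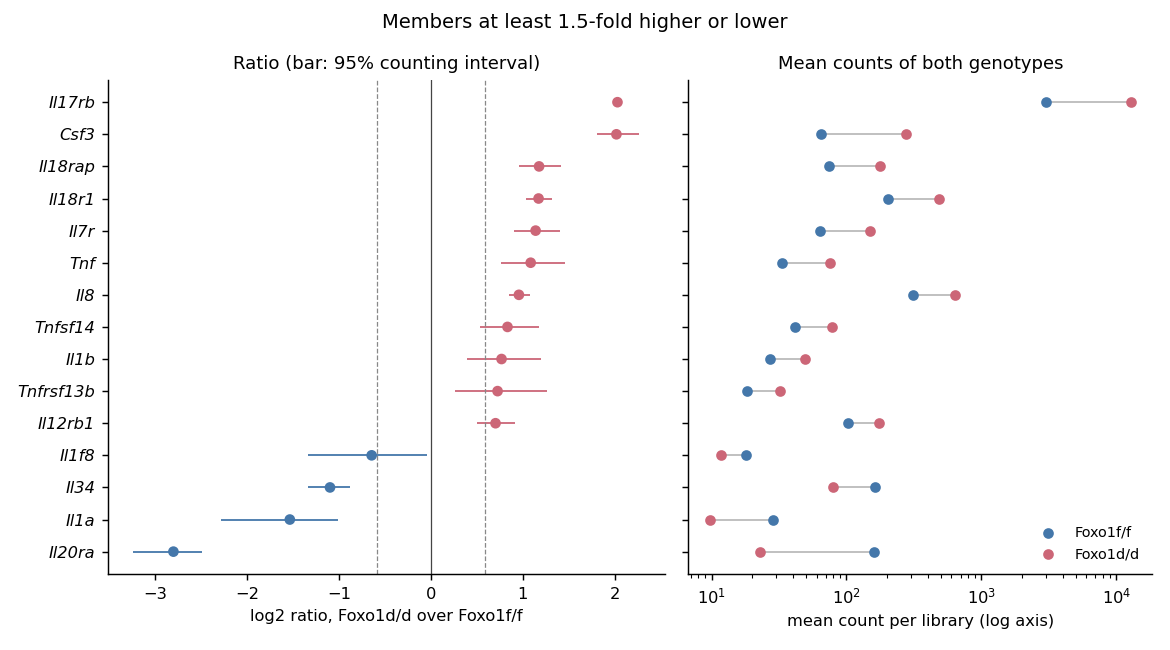
15 of the 16 members at least 1.5-fold higher or lower in Foxo1d/d, with the log2 ratio and its 95% counting interval (left; dashed lines at 1.5-fold) and the mean count per library in each genotype on a log axis (right). Ratios run from -2.80 for Il20ra to 2.03 for Il17rb, and the widest intervals belong to genes with few counts.

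Il17rb, which encodes the receptor chain that binds IL-25 and IL-17B, had the highest log2 ratio of the members above the minimum, ahead of Csf3 only through the pseudocount. Its mean count was 3030 in controls and 12915 in Foxo1d/d, 4.08-fold higher, with a log2 ratio of 2.03 (interval 2.00 to 2.06). Counting Il17rb, 442 genes had a mean count at least as high, 10 of them were at least 1.5-fold higher, and Il17rb had the highest ratio of these. Its level, in counts per kilobase of exon and 1000000 counts, was 56.3 in controls and 230 in Foxo1d/d. In Foxo1f/f uteri Tnfrsf1a had the highest level of all members, and in Foxo1d/d uteri Il17rb had. The ligands were scarce in both genotypes. Il25 had mean counts of 5.33 and 4.67, and Il17b had 18.3 and 13, with an interval that included no difference. Il17ra, the chain that IL-17RB pairs with, had mean counts of 1316 and 1572 and was 1.14-fold higher. The other receptors of the family, Il17rc, Il17rd and Il17re, lay between log2 ratios of -0.30 and 0.03. Il17d, the most abundant ligand of the family, had mean counts of 141 and 131, while Il17a, Il17c and Il17f each had a mean count of at most 4 in either genotype.

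Il20ra, which encodes a receptor chain for IL-19, IL-20 and IL-24, had the lowest ratio of the members above the minimum. Its mean count was 160 in controls and 23 in Foxo1d/d, 7.24-fold lower, with a log2 ratio of -2.80 (interval -3.24 to -2.49). It held place 28 from the lowest among the 15696 genes. Its partner chain Il20rb had mean counts of 253 and 285 and an interval that included no difference. The ligands were near the limit of detection. Il20 had a mean count of 3 in controls and none in Foxo1d/d, at least 3.13-fold lower against a floor of 3 counts over the genotype. Il19 had none in controls and 2 in Foxo1d/d, at least 1.92-fold higher against the same floor. Il24 had at most 3 counts over the libraries of either genotype, so no fold is given. Il10rb, a chain shared by the receptors of IL-10 and IL-22, had mean counts of 1252 and 1274, and Il10ra was 1.25-fold higher.

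The 250 bases before a listed start of Il17rb and Il20ra, the highest and lowest ratios above the minimum, are shown with those of Il33 and Il1rl1, the IL-33 ligand and its receptor, which held a FOXO match. Il33 and Il1rl1 each had 2 listed starts, and the one with the match is shown. The windows of Il20ra and Il1rl1 lie inside the annotated span of the gene. The sequences are from RefSeq (GRCm38.p6), on the strand of the gene, and capitals mark the FOXO consensus GTAAACA on either strand. They lie at chr14:30008897-30009146 (Il17rb, minus strand), chr10:19712337-19712586 (Il20ra, plus strand), chr19:29924863-29925112 (Il33, plus strand) and chr1:40439379-40439628 (Il1rl1, plus strand).
Il17rb: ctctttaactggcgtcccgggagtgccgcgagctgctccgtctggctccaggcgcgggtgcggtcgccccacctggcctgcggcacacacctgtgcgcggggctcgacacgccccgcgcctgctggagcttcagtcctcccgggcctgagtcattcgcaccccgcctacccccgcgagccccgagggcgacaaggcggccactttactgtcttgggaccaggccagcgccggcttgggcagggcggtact
Il20ra: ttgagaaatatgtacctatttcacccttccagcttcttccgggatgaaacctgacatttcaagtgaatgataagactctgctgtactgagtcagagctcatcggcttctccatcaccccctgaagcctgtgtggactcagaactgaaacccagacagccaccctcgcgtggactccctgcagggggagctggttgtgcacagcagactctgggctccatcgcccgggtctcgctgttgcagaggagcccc
Il33: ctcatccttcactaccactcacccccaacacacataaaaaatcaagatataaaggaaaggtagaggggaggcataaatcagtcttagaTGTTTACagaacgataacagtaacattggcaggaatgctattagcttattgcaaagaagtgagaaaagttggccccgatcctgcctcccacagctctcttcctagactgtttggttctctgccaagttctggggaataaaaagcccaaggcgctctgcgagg
Il1rl1: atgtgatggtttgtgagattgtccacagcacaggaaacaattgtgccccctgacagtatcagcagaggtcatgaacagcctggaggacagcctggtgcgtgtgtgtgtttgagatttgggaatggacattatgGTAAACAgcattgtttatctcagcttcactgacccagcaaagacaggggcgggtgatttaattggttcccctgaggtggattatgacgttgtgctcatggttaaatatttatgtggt
The match began 162 bases before the start of Il33 and 117 before that of Il1rl1. Neither gene was past 1.5-fold: Il33 had mean counts of 406 and 398, and Il1rl1 had 107 and 93.3. The only other member with a match, Il21r, chosen after its values were seen, held it 38 bases before the start and had a log2 ratio of 0.31 (interval 0.17 to 0.45). Promoters were given for 96 of the 125 members, with several for some. None of the 11 promoters of 9 higher members and none of the 3 promoters of 3 lower members held GTAAACA or the NF-kB site in these 250 bases. Among the members above the minimum and within 1.5-fold, 3 of 71 promoters held GTAAACA (4.22%) and 9 held the NF-kB site (12.7%). Over all 32851 promoters, 3.17% held GTAAACA and 7.25% the NF-kB site. The motifs were searched on both strands, and no match says only that these letters are not in this window.

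In the IL-1 family, 2 of 8 receptor and binding protein genes above the minimum were at least 1.5-fold higher, and of 6 ligand and antagonist genes 1 was higher and 2 lower. Il18r1 and Il18rap encode the binding chain and the accessory chain of the IL-18 receptor. Il18r1 had mean counts of 204 and 481, with a log2 ratio of 1.17 (interval 1.04 to 1.31), and Il18rap had 74.3 and 177, with a log2 ratio of 1.18 (interval 0.96 to 1.42). Both chains were thus higher by a like amount, 2.26-fold and 2.28-fold. Their ligand Il18 had mean counts of 187 and 207, with an interval that included no difference. Il18bp, which encodes the soluble protein that neutralizes IL-18, was 1.23-fold higher, although its exons overlap those of Numa1.

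Il1a and Il1b, which encode the ligands of the IL-1 receptor and are neighbours on chromosome 2, lay in opposite directions. Il1a had mean counts of 28.7 and 9.67, 3.09-fold lower, with a log2 ratio of -1.54 (interval -2.29 to -1.01). Exons of Il1a overlap those of Gm14023, and the strand setting of the counting was not given in the sources used here, so reads of both genes may be mixed. Il1b had mean counts of 27.3 and 49.3 and was 1.73-fold higher. Il1rn, the receptor antagonist, had 15.7 and 25. Its log2 ratio of 0.58 lay just inside 1.5-fold and passed it with a pseudocount of 0.1. Il1r1, the signaling receptor, was abundant and close to equal, with mean counts of 2542 and 2475. Il1r2, the decoy receptor, had 56 and 85.7 and was 1.47-fold higher, whereas the accessory chain Il1rap was 1.08-fold lower. Exons of Il1rap overlap those of Gm20319.

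The IL-36 genes, which act on epithelia, were lower or near detection. Il1f8, the gene of IL-36 beta, had mean counts of 18 and 11.7, with a log2 ratio of -0.65 (interval -1.34 to -0.05). It was no longer past 1.5-fold with a pseudocount of 5. Il1f9, the gene of IL-36 gamma, had mean counts of 16.7 and 3, which is 5.80-fold lower (log2 counting interval -3.74 to -1.50). Its mean over both genotypes was just under the minimum of 10, and it was chosen after its values were seen. Il1f6, the gene of IL-36 alpha, had 4.67 and 3, and Il1f5, the gene of the IL-36 receptor antagonist, had 1.33 and 0.33. Il1rl2, which encodes the IL-36 receptor, had mean counts of 694 and 602 and was 1.20-fold lower.

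**Figure D3:**
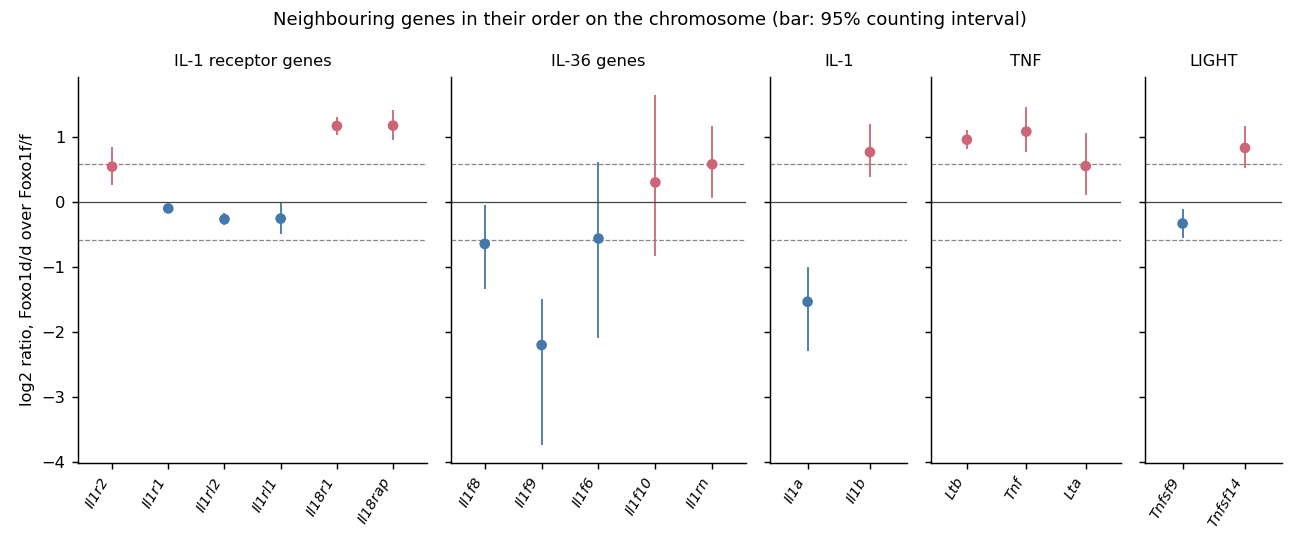
Log2 ratios (Foxo1d/d to Foxo1f/f) with 95% counting intervals for neighbouring genes, in their order on the chromosome; dashed lines mark 1.5-fold, and Il1f5 is left out of the IL-36 panel for its few counts. The 2 IL-18 receptor genes at one end of the IL-1 receptor genes were higher, and Il1a and Il1b lay on opposite sides of 0.

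Many members lie next to each other in the genome, and 59 of the 125 fell in 23 runs of neighbours with gaps of at most 500 kb. The 6 IL-1 receptor genes on chromosome 1 span 467 kb, from Il1r2 to Il18rap (chr1:40084692-40551707 on GRCm38.p6). Il18r1 and Il18rap, at one end, were the only genes of this run past 1.5-fold, and Il1r1, Il1rl2 and Il1rl1, in the middle, had log2 ratios of -0.10, -0.27 and -0.26. On chromosome 17, Tnf and Lta lie within 6.2 kb. Tnf and the neighbouring Ltb were at least 1.5-fold higher, and Lta, at 1.49-fold, was not.

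The receptors of the common gamma chain, IL-3, IL-5, IL-4 and IL-13 families together held more counts than any other group of members, 16698 in controls and 19575 in Foxo1d/d. Il7r, which encodes the IL-7 receptor chain of lymphocytes, had mean counts of 64 and 148, 2.22-fold higher, with a log2 ratio of 1.14 (interval 0.90 to 1.40). Its ligands differed less. Il7 had mean counts of 99.7 and 124 and was 1.19-fold higher, and Tslp, which signals through IL-7R and CRLF2, had 57.7 and 62. Crlf2 itself had 629 and 644, with an interval that included no difference. Il2rg, the common gamma chain, was 1.17-fold higher with mean counts of 822 and 1002. Il4ra, the chain shared by the IL-4 and IL-13 receptors, had mean counts of 3299 and 4831. It was 1.40-fold higher, short of the threshold, with a log2 ratio of 0.49 (interval 0.45 to 0.53). Il13ra2, the decoy receptor of IL-13, lay in the other direction, with mean counts of 1583 and 1156, with a log2 ratio of -0.51 (interval -0.58 to -0.45). Il4ra and Il13ra2 were chosen after their values were seen. Their ligands were near detection, since Il4 had a mean count of 7.33 in both genotypes and Il13 had 2 and 4.

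Il15, the ligand with the highest level per length among the interleukins and colony-stimulating factors over both genotypes, had levels of 12.2 and 14.6. Its mean counts were 400 and 498, 1.19-fold higher, with a log2 ratio of 0.25 (interval 0.14 to 0.36). Il2rb, which signals for IL-15, was 1.24-fold higher, whereas Il15ra, which presents IL-15 to neighbouring cells, was 1.29-fold lower with mean counts of 993 and 800. The ligand and its presenting chain thus lay on opposite sides of 0, both within 1.5-fold.

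Il9 and Il9r, chosen after their values were seen, were both below the count minimum. Il9, a cytokine of T cells and innate lymphoid cells, had 4 counts over the Foxo1f/f libraries and 24 over the Foxo1d/d libraries, 5.75-fold higher with a wide interval (log2 0.98 to 4.51). Its receptor Il9r had 13 and 37 counts and was 2.73-fold higher (log2 interval 0.50 to 2.48).

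Il12rb1, the chain shared by the receptors of IL-12 and IL-23, had mean counts of 103 and 175, with a log2 ratio of 0.70 (interval 0.50 to 0.92). Its partners Il12rb2 and Il23r had intervals that included no difference, with mean counts of 81.3 and 93 and of 14 and 15. Exons of Il12rb2 overlap those of Serbp1. The ligand chains were few. Il12b, the chain shared by IL-12 and IL-23, had no count in Foxo1f/f and a mean of 3.67 in Foxo1d/d, at least 3.51-fold higher. Il12a had 2.33 and 6, and Il23a had 11.3 and 13.7, both with intervals that included no difference. Il11ra1, the receptor used in decidualization, was abundant, with levels of 43.6 and 46.3. It was 1.06-fold higher with mean counts of 2520 and 2790, and its ligand Il11 had 10.3 and 14.3. Exons of Il11ra1 overlap those of Ccl27a, and its near-identical copy Il11ra2 had no count.

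The colony-stimulating factors lay in different directions. Csf3, the gene of granulocyte colony-stimulating factor, which drives the production of neutrophils, had mean counts of 65 and 278. It was 4.10-fold higher, with a log2 ratio of 2.02 (interval 1.81 to 2.27), next to that of Il17rb. Without the pseudocount its fold was slightly larger than the 4.08 of Il17rb, and its log2 ratio was the larger with a pseudocount of 0.1. Its level per length was 1.76 in controls and 7.22 in Foxo1d/d, and the receptor gene Csf3r was 1.34-fold higher with mean counts of 253 and 355. Il34 and Csf1 encode the ligands of the macrophage receptor CSF1R, and both were lower. Il34 had mean counts of 164 and 79.3, 2.16-fold lower, with a log2 ratio of -1.10 (interval -1.34 to -0.88). Csf1 had 1644 and 1375 and was 1.25-fold lower, with a log2 ratio of -0.32 (interval -0.38 to -0.26). Csf1r lay in the other direction, 1.12-fold higher with mean counts of 2487 and 2895. Csf2, the gene of granulocyte-macrophage colony-stimulating factor, had mean counts of 5 and 8. Its receptor chains were abundant, Csf2ra with mean counts of 1540 and 1616 and Csf2rb, 1.12-fold higher, with 2922 and 3419. The sign of the Csf2ra ratio, 0.01, turned to -0.02 when the ratios were centred on the median gene. Csf2rb and Csf2rb2 are near-identical copies, so reads may have been split between them.

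**Figure D4:**
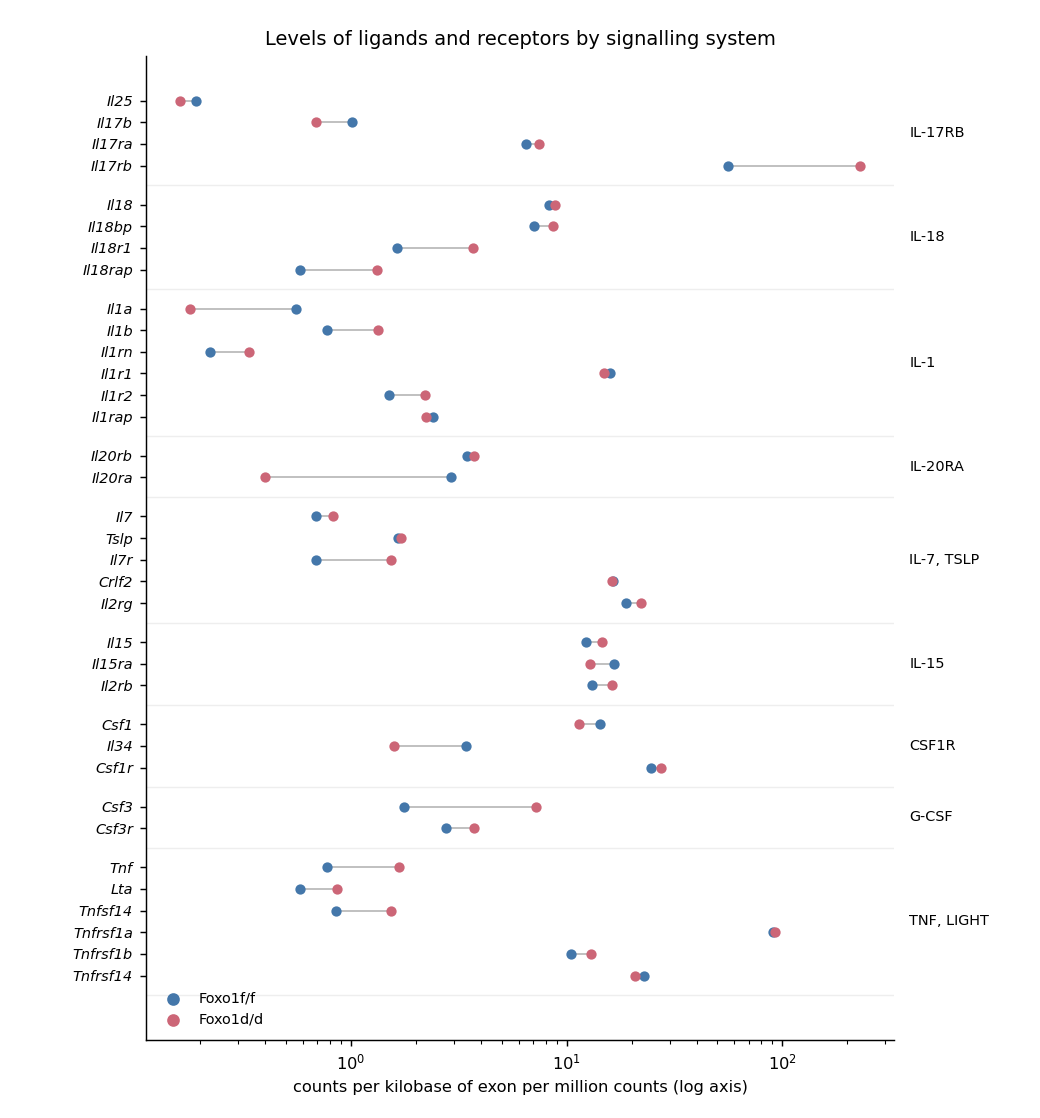
Level of ligands and receptors in both genotypes, in counts per kilobase of exon and 1000000 counts on a log axis, grouped by signaling system. Il17rb had the highest level in Foxo1d/d (230), while its ligands Il25 and Il17b stood at 1.01 or less in both genotypes.

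Among the TNF superfamily ligands, Tnf and Tnfsf14 were at least 1.5-fold higher. Tnf had mean counts of 33.3 and 75, 2.16-fold higher, with a log2 ratio of 1.09 (interval 0.76 to 1.46). Tnfsf14, the gene of LIGHT, had 41.3 and 77.7 and was 1.80-fold higher. Lta, the gene of lymphotoxin alpha, had 21 and 32.7 and lay just inside the threshold at 1.49-fold. These ligands were scarce, with levels of at most 1.68. The ligands with the highest levels were Tnfsf10, the gene of TRAIL, at 16.1 and 18.9, and Tnfsf12, the gene of TWEAK, at 17 and 14.7. Tnfsf10 was 1.17-fold higher and Tnfsf12 1.16-fold lower, and the exons of Tnfsf12 overlap those of Tnfsfm13. Their receptors Tnfrsf10b and Tnfrsf12a were chosen after their values were seen. Tnfrsf10b had mean counts of 728 and 744, with an interval that included no difference. Tnfrsf12a had 230 and 331 and was 1.38-fold higher.

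Among the receptors with numbered Tnfrsf symbols, those with the highest levels were well within 1.5-fold. Tnfrsf1a, the main TNF receptor of most cells, had mean counts of 5075 and 5441 and was 1.03-fold higher. Tnfrsf21, the gene of death receptor 6, had levels of 31.9 and 27.7 and was 1.15-fold lower. Tnfrsf14, the receptor of LIGHT, had levels of 22.9 and 20.8 and was 1.10-fold lower. Tnfrsf1b, the TNF receptor found mainly on leukocytes, was 1.24-fold higher with mean counts of 1042 and 1347. The only gene above the minimum with a numbered Tnfrsf symbol past 1.5-fold was Tnfrsf13b, the gene of TACI, a receptor of B cells. It had mean counts of 18.3 and 32.3, with a log2 ratio of 0.72 (interval 0.27 to 1.26). Its ligands Tnfsf13 and Tnfsf13b, the genes of APRIL and BAFF, had log2 ratios of 0.19 and -0.15. Exons of Tnfsf13 also overlap those of Tnfsfm13. Tnfrsf9, a costimulatory receptor of T cells chosen after its values were seen, had mean counts of 323 and 234 and was 1.44-fold lower.

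Il8, listed under the older symbol of Cxcl15, had mean counts of 313 and 634. It was 1.94-fold higher, with a log2 ratio of 0.96 (interval 0.85 to 1.07). Cxcl15 encodes a chemokine, so it stands outside the classes above.

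Below the count minimum lay 34 members, of which 4 had no count in either genotype. A further 4 had counts only in Foxo1d/d and 2 only in Foxo1f/f. Of those with a count, 20 had a log2 ratio above 0 and 10 below. The counting interval lay above 0 for Il9, Il9r, Il12b and Il19 and below 0 for Il1f9 and Il20, and included 0 or could not be set for the rest. Neither split was counted over all genes below the minimum, so these numbers have no background and are not read as a result about the members.

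The pathway genes outside the members numbered 53, of which 51 were above the minimum. Of these, 7 were at least 1.5-fold higher (13.7%) and none lower, against 5.43% and 3.51% of all genes. With the ratios centred on the median gene, 5 were at least 1.5-fold higher. Their median log2 ratio was 0.06. Among 11 TNF superfamily genes that carry other symbols, 3 were higher (27.3%), with a median of 0.14. Ngfr, the neurotrophin receptor and the most abundant of these over both genotypes, had mean counts of 1880 and 5082, with a log2 ratio of 1.37. Ltb, the gene of lymphotoxin beta, had 201 and 408 and a log2 ratio of 0.96, while its receptor Ltbr, which also binds LIGHT, was 1.09-fold higher. Of the 9 adaptors of the IL-1 and IL-17 receptors, 1 was higher (11.1%), with a median of 0.08. Myd88, the adaptor of the IL-1 and IL-18 receptors, had mean counts of 2059 and 4528 and was 2.11-fold higher. Irak2, a kinase of the same pathway, had 1244 and 888 and a log2 ratio of -0.55, and Irak1, the most abundant, was 1.08-fold higher. Traf3ip2, the adaptor of the IL-17 receptors, had mean counts of 1977 and 2062.

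Among 14 TNF receptor adaptors, 1 was higher (7.14%, near the share of all genes). The median log2 ratio of 0.02 turned to -0.0082 when centred on the median gene. Traf1 had mean counts of 545 and 864, with a log2 ratio of 0.60, and it was within 1.5-fold after that centring. Cflar, an inhibitor of caspase activation and the most abundant gene of the list, had a log2 ratio of -0.18. Of 17 JAK, STAT and SOCS genes, 2 were higher (11.8%), with a median of 0.06. Socs1, a feedback inhibitor of cytokine signaling, had mean counts of 210 and 383 and was 1.75-fold higher. Stat4, which IL-12 activates, had 107 and 173 and was 1.54-fold higher, while Jak1, the most abundant, was close to equal with 12478 and 12888.

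Since leukocytes express many of the members, markers of the cell types a uterus may hold were described from the same mean counts. The 5 general leukocyte markers summed to 10959 in controls and 14846 in Foxo1d/d, with a median log2 ratio of 0.37 and none past 1.5-fold. Coro1a and Ptprc had log2 ratios of 0.49 and 0.40, and the most abundant, Lcp1, 0.33. T cell markers stood out, with 8 of 9 at least 1.5-fold higher and summed mean counts of 473 and 1005. Cd8a, the CD8 coreceptor, had mean counts of 30 and 123, Cd8b1 had 15 and 49.3, and Cd3g, the most abundant, had 156 and 283. Foxp3, the factor of regulatory T cells, had 14.3 and 16.

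The B and plasma cell markers summed to 632 and 2365, with 3 of 5 above the minimum higher. Most of these counts belonged to Igj, the joining chain of antibodies, with mean counts of 470 and 2092. Of 8 dendritic cell markers 3 were higher, led by Ccr7 with 7.33 and 22.7 and Flt3 with 148 and 279, and Irf8, the most abundant, was 1.38-fold higher. The 12 markers of natural killer and innate lymphoid cells summed to 3872 and 5002, with a median log2 ratio of 0.28. Of these, 2 were higher, namely Gzma at 1.65-fold and Tbx21 at 1.60-fold. Ncr1, the most abundant over both genotypes, was 1.30-fold higher. In all, 10 lay above 0 and 2 below. Those below were Klrg1, 1.12-fold lower, and Gzmb, with mean counts of 767 and 793, both chosen after their values were seen. The 12 macrophage and monocyte markers summed to 22907 and 28784, with none past 1.5-fold and a median log2 ratio of 0.27. Among these, Cd14 and Ccr2 had log2 ratios of 0.54 and 0.42, and Lyz2, the most abundant, 0.27.

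Neutrophil markers were scarce, with summed mean counts of 107 and 179. Of the 4 above the minimum 2 were higher, S100a9 with 12.3 and 30.7 and Mpo with 26.3 and 52.3, and Retnlg, the most abundant, had 52 and 67.3. The granule genes Elane and Ngp had no count in Foxo1f/f and each had 3 over the Foxo1d/d libraries. Camp, a further granule gene, had 4 counts over the Foxo1f/f libraries and 3 over the Foxo1d/d libraries. In the list of mast cells, basophils and eosinophils 8 of 10 markers lay below 0, 2 of them past 1.5-fold, with a median log2 ratio of -0.43. The eosinophil genes in it lay on both sides. Ccr3 and Siglecf (listed as Siglec5), both chosen after their values were seen, lay above 0 with intervals that included no difference. Fcer1a had mean counts of 20.3 and 9, the eosinophil gene Prg2 had 29.3 and 18.7, and Kit, the most abundant, was 1.36-fold lower. The basophil gene Mcpt8 had no count in Foxo1f/f and 2 over the Foxo1d/d libraries.

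Of the tissue lists, uterine epithelium had 3 of 13 higher and 1 lower, with a median of 0.28. Krt19 was 2.33-fold higher, and Cdh1, the most abundant, was 1.08-fold higher. The squamous list of cervix and vagina had 2 of 4 higher and 1 lower, with Krt5 at mean counts of 37 and 236 and Krt14 at 15 and 66.3. The lower gene was Dsg3, with 67.7 and 29.7. Trp63 had 90.3 and 100, with an interval that included no difference. Dsg3 and Trp63 were chosen after their values were seen. The study's methods for RNA have the cervix removed, in a passage on mice after surgery, and do not say whether this held for these mice. Adipocyte markers were higher in 6 of 7, with summed mean counts of 1282 and 2611. Cidec was 4.69-fold and Plin1 4.46-fold higher, and Lipe, the most abundant, 1.13-fold. None of the 10 stromal, 6 smooth muscle or 9 endothelial markers was past 1.5-fold, with medians of -0.08, -0.30 and -0.22. In these lists Nt5e and Lum had log2 ratios of -0.54 and 0.37, Myh11 and Actg2 -0.43 and -0.41, and Prox1 and Vwf -0.53 and -0.41, while the most abundant genes Col3a1 and Pecam1 had -0.05 and -0.22. The ovary and oviduct list had none of 5 past 1.5-fold and a median of 0.03. There Amh and Inha had log2 ratios of -0.35 and -0.19, Ovgp1, the most abundant, 0.17, and Cyp19a1, Fshr and Zp3 had at most 1 count over the libraries of either genotype. The part of the other cell types in the values of the members was likewise not tested.

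**Figure D5:**
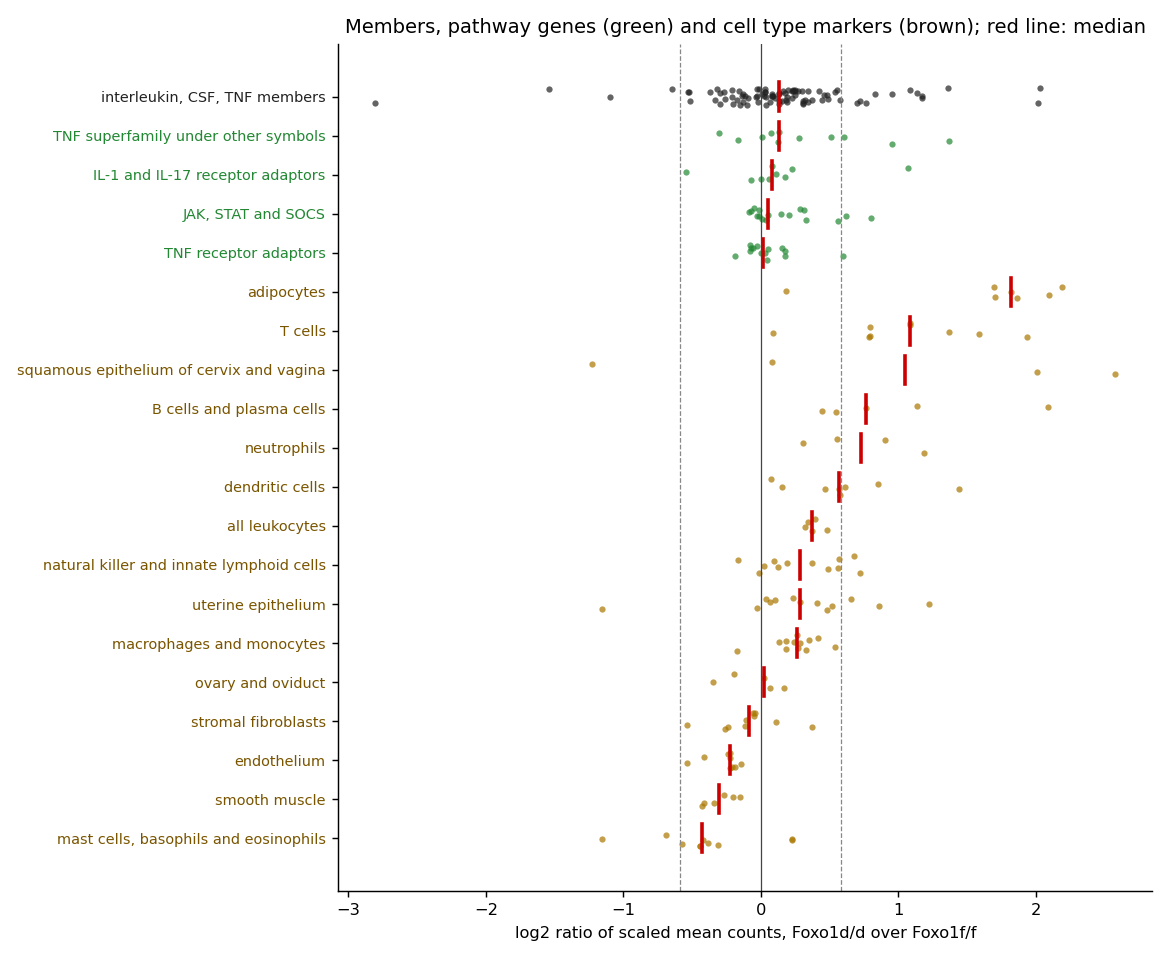
Log2 ratios (Foxo1d/d to Foxo1f/f) for each gene that averaged at least 10 counts among the members (black), the pathway lists (green) and the cell type marker lists (brown), with the median of each list as a red line and 1.5-fold as dashed lines. Medians of the marker lists run from -0.43 for mast cells, basophils and eosinophils to 1.82 for adipocytes, against 0.13 for the members.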

How the data were processed

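Libraries were made from poly(A)-selected RNA with the Illumina TruSeq protocol and sequenced as paired ends. The authors trimmed the reads, mapped them with STAR to mm10 with RefSeq genes (the submitters' processing notes name mm9), removed duplicates with picard and counted reads per gene with HTSeq, for which no versions or strand setting were given in the sources used here. The deposited table gives, for every gene, raw counts averaged over the 3 libraries of a genotype, and 100.0% of the means were whole after multiplication by 3 (tolerance 0.01). It also holds the authors' edgeR fold change, average log2 CPM, p-value and FDR, which were not used.

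The planned quasi-likelihood test needed counts of single libraries, so the log2 ratio of mean counts (pseudocount 1, divided by the genotype total) was used in its place, with no test. Genes that averaged at least 10 counts over the genotypes were kept, and a difference of at least 1.5-fold was counted. Exact Clopper-Pearson intervals (95%) of the ratio were computed from the summed counts, of which there were 78375043 for Foxo1f/f against 81773890 for Foxo1d/d, and a genotype at 0 was set to a floor of 3 counts. Levels used the union of RefSeq exons in GENCODE annotation of GRCm38, and positions and promoters came from RefSeq on GRCm38.p6, in which 125 members were found, 1 of them under another symbol. The steps were tested on simulated data with Poisson counting error only, so that test did not cover the variation between pools. They were run in Python 3.11.15 with numpy 2.4.6, pandas 2.3.3, scipy 1.17.1 and matplotlib 3.10.9.

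The members and the lists were chosen with earlier results of these data known. Named were the members past 1.5-fold above the count minimum, the 3 members with the highest level per length among the ligands, the receptors and the TNF superfamily, and the ligand or receptor partners of these, paired after the values were seen. Of each pathway and marker list, the counts, the median, the 2 largest differences above the minimum and the most abundant gene over both genotypes were given. Additions are marked as chosen after their values were seen, and 1 member and 2 markers that the rule picks are left out of the text. The alternatives were upper quartile scaling, centring on the median gene, pseudocounts of 0.1 and 5, minimum mean counts of 1 and 50 and a fold of 2.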

Additional observations from a re-analysis of the deposited data

How the results depend on the processing

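The 12 higher and 4 lower members stayed within 1.5 times those counts under both other scalings and both other pseudocounts, while the count minimum and the fold moved them. With a minimum mean count of 1, 22 of 115 members were higher and 7 lower, against 1346 (7.52%) and 919 (5.13%) of 17901 genes, and 1 pathway gene was lower. With a minimum of 50, fewer genes entered, and 9 of 73 members were higher and 2 lower, against 528 (3.81%) and 357 (2.58%) of 13856 genes. At 2-fold, 7 of 91 members were higher and 3 lower, against 313 (1.99%) and 220 (1.40%) of 15696 genes and 2 pathway genes higher. These settings changed which genes were let in or how large a fold was counted, and what drove the moves was not tested. The median log2 ratio of the members ran from 0.09 to 0.16 over the alternatives. Of the 57 members that the naming rule picks, the sign of only Csf2ra differed under an alternative, and 226 of 228 recomputed ratios lay inside their counting intervals. Those ratios came from the same mean counts as the intervals, with only the scaling or the pseudocount changed. Staying inside was thus close to fixed in advance and says nothing about the variation between pools. The same alternatives for each class of members, added after the data were seen, kept each class median above 0, from 0.03 at the lowest to 0.23 at the highest. No paired analysis was possible because the values were means over the libraries of a genotype, and leaving out a replicate was not run for the same reason. Of the 16 members past 1.5-fold, 11 had intervals wholly past it. Of the 34 below the minimum, 4 had intervals above 0 and 2 below, with no like count over all genes.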
